A study of Mus musculus with 29 samples.

Results

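Bipolar cells relay the signals of photoreceptors to the inner retina. ON types respond to the onset of light through the glutamate receptor encoded by Grm6, and OFF types respond to its end through ionotropic glutamate receptors. Each class holds several types that differ in shape, in the retinal layer in which their axons end and in the genes they express. The 6 genes described here, Tacr3, Nnat, Nxph1, Prkar2b, Fezf1 and Fezf2, were chosen by name as markers of OFF bipolar types, and all 6 were found among the 24062 genes of the expression table. Tacr3 encodes the neurokinin-3 receptor, a receptor for tachykinin peptides. Nnat encodes neuronatin, a small membrane protein, and Nxph1 encodes neurexophilin-1, a secreted ligand of alpha-neurexins. Prkar2b encodes the RIIβ regulatory subunit of protein kinase A, and Fezf1 and Fezf2 encode related zinc-finger transcriptional repressors. In the mouse retina, antibodies against the tachykinin receptor and against RIIβ are in long use to label particular OFF types.

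RNA-seq had been done on 15 libraries, 3 for each of 5 sorted populations: bipolar cells of every type (pan-BC), those of the ON class (ON-BC), those of the OFF class (OFF-BC), rods and blue cones. ON-BC and OFF-BC were sorted from retinas of Otx2-GFP+/-; Grm6-YFP+/+ mice, ON-BC by a single sort and OFF-BC by a double sort, with libraries 1, 2 and 3 of each at postnatal days 43, 48 and 42. Pan-BC were sorted a single time from Otx2-GFP+/- mice without the Grm6 transgene at days 47, 44 and 44. Rods (Nrl-eGFP) and blue cones (Nrl-eGFP;NrlKO) were sorted a single time at day 56 and had been sequenced for an earlier study. The blue cones are photoreceptors of mice that lack Nrl, used in place of rare native blue cones. Because the Grm6 transgene labels ON types on top of the Otx2 label, the classes were parted by brightness, and cells of intermediate brightness were left out of both. Photoreceptors also carry the Otx2 label at a lower level. Cell class, reporter genotype, study and age all differ between bipolar and photoreceptor libraries and cannot be told apart. Between OFF-BC and ON-BC, cell class and the number of sorts cannot be told apart. Chromatin accessibility was measured by ATAC-seq in 2 libraries of each population, with 2 more of green cones that were double-sorted and enter only the peak counts. Those of pan-BC (days 44 and 43), ON-BC and OFF-BC (days 42 and 46) came from Otx2-GFP+/-; Grm6-YFP+/+ mice, and those of rods, blue cones and green cones (Opn1mw-GFP) from mice at day 56.

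The RNA-seq libraries held 12329548 to 26266746 counted reads each, and the ATAC-seq libraries 4176776 to 12345845. Values are read counts divided by a size factor for each library (normalized counts). In the ON-BC libraries Grm6 had 13260, 13840 and 13400 normalized counts, and in OFF-BC it had 145, 64.9 and 593. The summed level of 9 ON bipolar markers in OFF-BC was 13.0% to 19.2% of its mean in ON-BC. Among these 9, Rgs11 had means of 5382 in OFF-BC and 14030 in ON-BC, Gng13 11880 and 41160 and Pcp2 11960 and 65650. Isl1 had 611 and 26260 and Prkca 235 and 8239, so the summed percentage is not a share of ON cells. Nrl had 11480 to 16600 in rods and 486 to 764 in the mice that lack it. The summed level of 7 cone markers in OFF-BC, as a percentage of its mean in blue cones, was 1.38, 1.29 and 5.58, so that the OFF-BC library 3 stood apart. The same percentage was 2.51 to 4.09 in pan-BC and 0.251 to 0.29 in ON-BC. Of the cone markers, Gnat2 had 16560, 13810 and 21000 in the OFF-BC libraries and a mean of 163300 in blue cones. Opn1sw had 4477, 4314 and 55810 in OFF-BC and a mean of 1222000 in blue cones. In ON-BC the mean of Gnat2 was 3290 and that of Opn1sw 681. The summed level of 8 amacrine cell markers was 923 to 1113 in OFF-BC, 328 to 485 in ON-BC and 564 to 612 in pan-BC. It was 2115 to 2448 in rods and 1371 to 1600 in blue cones, mostly from Slc6a9 (means 2271 and 1476). The sum thus does not measure amacrine cells alone. In OFF-BC and ON-BC, Slc6a9 had means of 566 and 159, Tfap2b 212 and 54.5 and Pax6 184 and 114. Gad1 had 27.7 and 37.7 and Gad2 22.5 and 20.05. The summed level of 7 rod markers was 5619 to 8709 in OFF-BC and 23990 to 27390 in ON-BC.

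The first question was whether these genes separated OFF-BC from ON-BC. The 6 members were chosen as OFF markers with earlier results of these data known. The authors had also used Tacr3 in RT-qPCR to check their sorted cells, so the counts below are not an independent test. A single limma fit of the 15 libraries was made on log2(normalized count + 1), and a gene was called where its difference exceeded 1 on that scale at an adjusted p below 0.05. All 6 members were among the 14024 genes that passed the filter on low counts. Of the 6 members, 4 were called higher in OFF-BC than in ON-BC (Tacr3, Fezf2, Nxph1 and Nnat) and none was called lower, beside 3.6% of all tested genes called higher and 2.95% called lower. The median log2 difference was 5.11 over the 6 members and 0.02 over all tested genes. The same 4 genes were called under each of the 15 alternatives tried, and leaving out any OFF-BC or ON-BC library, the OFF-BC library 3 included, gave 4 calls. In each of the 6 members every OFF-BC library was above every ON-BC library, which held for 22.6% of all tested genes. For Fezf1 this rested on 3 reads in the lowest OFF-BC library and 2 reads in the highest ON-BC library. In sorted bulk samples, fewer cells of a type and less RNA per cell cannot be told apart.

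Tacr3 had 1801, 2749 and 1734 normalized counts in the 3 OFF-BC libraries and 18.6, 18.6 and 2.05 in the ON-BC libraries. It was high in every OFF-BC library, and the ON-BC values rested on 18, 19 and 2 reads. Its log2 difference was 7.60 (SE 0.81, limma adjusted p = 1.4e-05). Fezf2, a transcription factor also known for its role in the identity of deep-layer cortical neurons, had 2687, 2331 and 2567 in the OFF-BC libraries and 15.5, 14.7 and 15.4 in ON-BC. The OFF-BC mean was 166-fold the ON-BC mean, and the groups were far apart. The CV was 7.16% in OFF-BC and 2.81% in ON-BC, where the values rested on 15, 15 and 15 reads. So few reads do not measure a spread this small. The log2 difference was 7.29 (SE 0.35, limma adjusted p = 2.87e-09).

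Nxph1 had 260, 491 and 416 normalized counts in OFF-BC and 1.03, 10.8 and 15.4 in ON-BC, from 1, 11 and 15 reads. The lowest OFF-BC library was well above the highest ON-BC library, and the log2 difference was 5.69 (SE 0.58, limma adjusted p = 1.41e-05). Nnat had 12900, 11360 and 9617 in OFF-BC libraries and 433, 489 and 551 in ON-BC. The groups did not overlap, but ON-BC were not at background, with a level 4.35% of that in OFF-BC. The log2 difference of Nnat was 4.52 (SE 0.25, limma adjusted p = 4.35e-08). Nnat lies within the span of Blcap on the opposite strand. No exon bases are shared between these 2 genes in RefSeq, and Blcap differed by 0.32 in log2 (OFF-BC minus ON-BC, limma adjusted p = 1).

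Prkar2b had 775, 785 and 874 normalized counts in OFF-BC and 242, 152 and 202 in ON-BC. The groups did not overlap and the OFF-BC mean was 4.09-fold the ON-BC mean, the smallest ratio of the 6 members. The log2 difference of 2.05 (SE 0.59) was not called in the fit of all 15 libraries (limma adjusted p = 0.48), nor by DESeq2 (adjusted p = 0.721). It was called when only the OFF-BC and ON-BC libraries were fitted (SE 0.17, limma adjusted p = 0.000796; 4.16% of genes called higher) and by edgeR on the recovered reads (adjusted p = 0.00661; 4.68% called higher). In rods and blue cones, where Prkar2b had 2 to 22 reads, its values ranged over 1.52 to 16.55, and these libraries enter the SE of the larger fit.

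Fezf1 was present at a very low level in OFF-BC, with 16.8, 3.6 and 11.0 normalized counts from 15, 3 and 10 reads. ON-BC had 2.06, 0 and 0, from 2, 0 and 0 reads. The groups did not overlap, but the log2 difference of 2.78 (SE 0.70) was not called (limma adjusted p = 0.143). Of the 14 alternatives that tested it, only edgeR called it (adjusted p = 0.0322). With only the OFF-BC and ON-BC libraries fitted, Fezf1 did not get a test. The highest level of Fezf1 was in blue cones, with 250, 282 and 265 normalized counts from 333 to 371 reads. Rods had 1.94, 2.05 and 1.08. The OFF-BC level was below that of blue cones by a log2 difference of -4.74 (SE 0.70, limma adjusted p = 0.000163), and Fezf1 went against its label as an OFF marker in this respect. The cone marker percentages given above for OFF-BC and pan-BC were higher than for ON-BC, as was Fezf1, and their part in the Fezf1 level was not tested. In OFF-BC libraries 1 and 2 those percentages came mostly from Gnat2. In OFF-BC libraries 1, 2 and 3 the cone percentages were 1.38, 1.29 and 5.58, and Fezf1 had 16.8, 3.6 and 11.0. In pan-BC libraries 1, 2 and 3 the percentages were 4.09, 2.51 and 3.48, and Fezf1 had 8.51, 2.02 and 0. Without OFF-BC library 3 the log2 difference of Fezf1 from ON-BC was 2.64 (SE 0.81, limma adjusted p = 0.338).

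**Figure D1:**
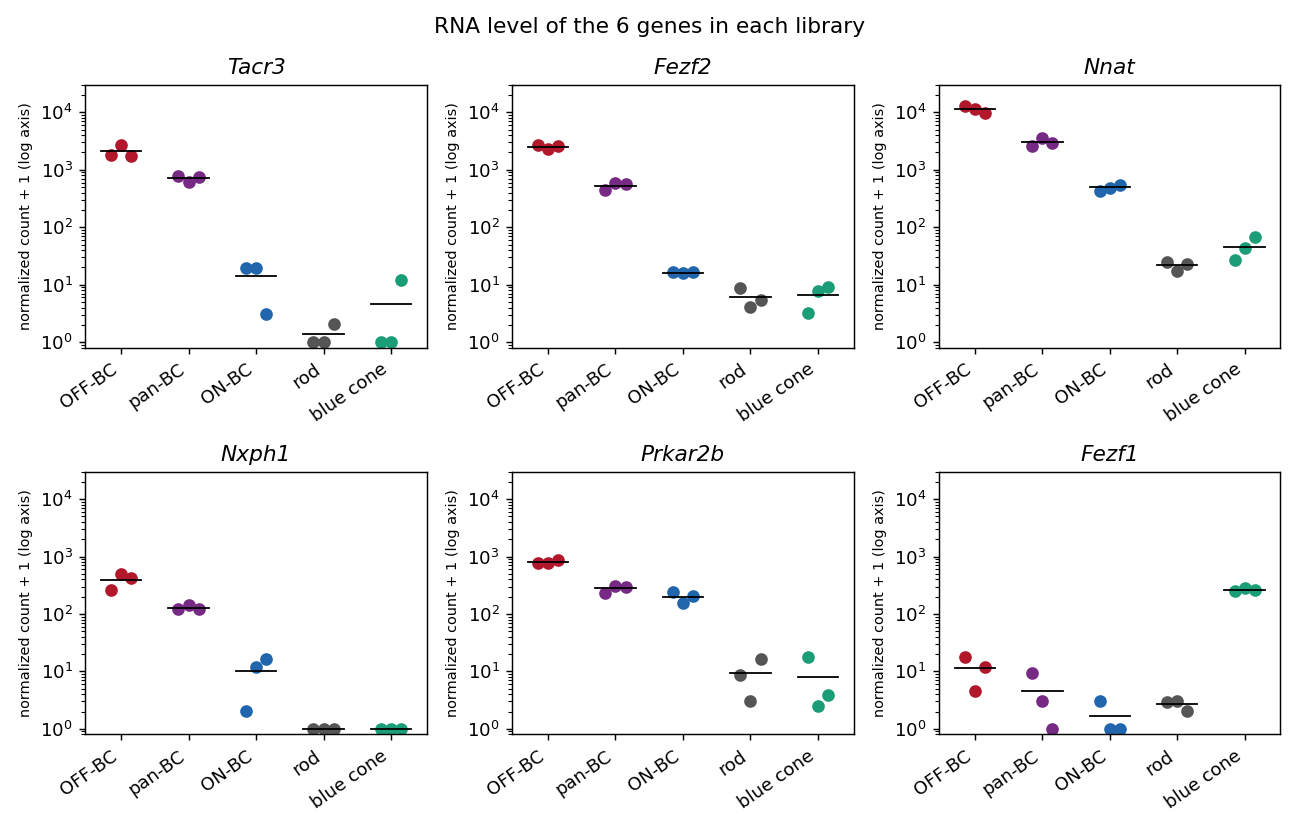
Normalized count plus 1 (log axis) of each gene in every RNA-seq library, by population. Points are libraries, 3 per population, and the bar is the mean. OFF-BC is the highest population for every gene but Fezf1, which is highest in blue cones at 250 to 282 normalized counts.

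Among the libraries of OFF-BC, the members did not rise and fall together. Tacr3 and Nxph1 were highest in library 2, Nnat, Fezf1 and Fezf2 in library 1 and Prkar2b in library 3. The CV over the 3 libraries was 27.1% for Tacr3, 30.3% for Nxph1, 14.5% for Nnat, 7.16% for Fezf2 and 6.75% for Prkar2b, and 63% for Fezf1, which had the fewest reads. Per kb of RefSeq exon, the mean OFF-BC level was 8450 normalized counts for Nnat, 1100 for Fezf2, 556 for Tacr3, 223 for Prkar2b, 218 for Nxph1 and 4.54 for Fezf1. Prkar2b and Nxph1 could not be ordered, since the range of Nxph1 (146 to 276 per kb) enclosed that of Prkar2b (213 to 240). The other neighbours in this order did not overlap. In ON-BC the order per kb was different, with Nnat first at 368 normalized counts and Prkar2b second at 54.6. Fezf2, Nxph1 and Tacr3 followed at 6.59, 5.09 and 3.48 with overlapping ranges for each pair of neighbours, and Fezf1 was at 0.298, its range overlapping that of Tacr3.

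The next question was where unsorted bipolar cells lay between the sorted classes. In pan-BC, Tacr3 had 780, 601 and 740 normalized counts, Nnat 2643, 3632 and 2899, and Fezf2 444, 580 and 563. For these 3 genes every pan-BC library was between the ON-BC and OFF-BC libraries. Nxph1 had 119, 140 and 120 and also lay between them. Prkar2b had 231, 301 and 300 in pan-BC, and its lowest pan-BC library was below the highest ON-BC library. Fezf1 had 8.51, 2.02 and 0. Pan-BC was called above ON-BC for Fezf2 (log2 difference 5.02, SE 0.35, limma adjusted p = 1.77e-06), Nnat (2.63, SE 0.25, 0.000736), Nxph1 (4.12, SE 0.58, 0.00444) and Tacr3 (6.06, SE 0.81, 0.0011), 4 of 6 beside 0.898% of all tested genes. OFF-BC was called above pan-BC for 2 of the 6, beside 0.727% of all tested genes. These were Fezf2 (2.26, SE 0.35, limma adjusted p = 0.0398) and Nnat (1.89, SE 0.25, limma adjusted p = 0.0398). Both were near the threshold. Leaving out any one of the 6 OFF-BC and pan-BC libraries ended the Fezf2 call, with an adjusted p of 0.0956 (without pan-BC library 2) to 0.197 (without pan-BC library 1). The Nnat call was lost without OFF-BC library 1 or 2 or pan-BC library 1 or 3. These comparisons share the pan-BC, ON-BC and OFF-BC libraries.

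Expressed as a position between the ON-BC mean (0%) and the OFF-BC mean (100%), pan-BC lay at 33.3% for Tacr3, 30.9% for Nxph1, 23.8% for Nnat, 20.4% for Fezf2 and 12.8% for Prkar2b. Over the 505 genes called higher in OFF-BC than in ON-BC the median was 24.8%, with an interquartile range of 17.6% to 34.0%. The 3 pan-BC libraries spanned 28.3% to 36.8% for Tacr3 and 17.0% to 22.5% for Fezf2, with the ON-BC and OFF-BC means held fixed and their own spread left out. For Fezf1 they spanned -7.03% to 80%, which gives no usable position. The pan-BC mice lacked the Grm6 transgene and their cells were sorted once, so these positions are not shares of cells.

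**Figure D2:**
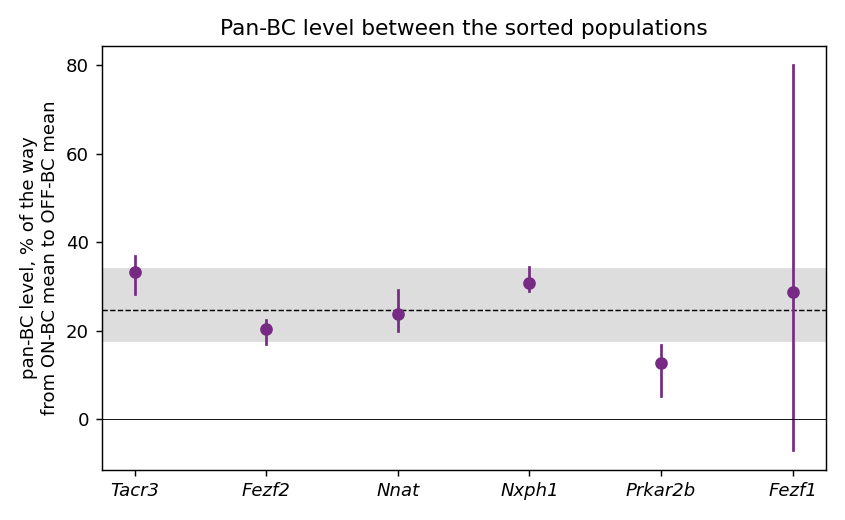
Position of the pan-BC mean between the ON-BC mean (0%) and the OFF-BC mean (100%) for each gene, in percent. Points use the mean of 3 pan-BC libraries, vertical lines span the libraries, and the dashed line and grey band are the median (24.8%) and interquartile range over the 505 genes called higher in OFF-BC.

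Against photoreceptors, 5 members were called higher in OFF-BC than in rods, all but Fezf1, beside 27.1% of all tested genes. Of these, Nnat had 24.3, 16.4 and 21.6 normalized counts in rods, and its log2 difference was 9.03 (SE 0.25, limma adjusted p = 3.41e-14). Fezf2 had 7.76, 3.07 and 4.32 in rods, Prkar2b 7.76, 2.05 and 15.1, and Tacr3 a single read in the 3 rod libraries together. Nxph1 had no read in any rod or blue cone library. With a floor of 3 reads over the 3 libraries of a group, its OFF-BC mean was at least 380-fold higher than in rods and at least 519-fold higher than in blue cones. The same 5 members were called higher in OFF-BC than in blue cones and Fezf1 was called lower, beside 21.8% of all tested genes called higher and 13.7% called lower. In blue cones Nnat had 26.3, 41.7 and 67.4, and Tacr3, Nxph1, Prkar2b and Fezf2 had at most 16.55. The same 5 members were called against blue cones with OFF-BC library 3 left out.

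Members that were low in ON-BC still differed from photoreceptors in part. ON-BC was called above rods for Nnat (log2 difference 4.51, SE 0.25, limma adjusted p = 1.01e-09), Prkar2b (4.70, SE 0.59, 2.26e-05), Nxph1 (2.87, SE 0.58, 0.00686) and Tacr3 (3.05, SE 0.81, 0.0278), 4 of 6 beside 26.2% of all tested genes. The Tacr3 call was lost without ON-BC library 1 or 2 or rod library 1 or 2 (adjusted p 0.0744 to 0.112), and the Nxph1 call without ON-BC library 3 (0.0514). With a pseudocount of 5 both calls were lost. ON-BC was called above blue cones for Nnat, Prkar2b and Nxph1, beside 21.1%, and below them for Fezf1 (-7.52, SE 0.70, limma adjusted p = 3.8e-07), beside 13.7%. The Nxph1 call was lost without ON-BC library 3 (limma adjusted p = 0.0606) and, at 1.32, with a pseudocount of 5 (0.454). Without ON-BC library 3 or blue cone library 3, Tacr3 was called as well (0.0278 and 0.00305). Between rods and blue cones only Fezf1 was called, with a log2 difference of -6.65 (SE 0.70, limma adjusted p = 4.43e-06) beside 11.3% of all tested genes called lower in rods. The ON-BC mean as a percentage of the OFF-BC mean was 0.601 for Fezf2, 0.625 for Tacr3, 2.33 for Nxph1, 4.35 for Nnat and 24.5 for Prkar2b.

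Other genes that mark OFF types were examined as a list of 17, of which 16 passed the filter. Not all of them were low outside OFF-BC. Cabp5 had means of 59270 in OFF-BC, 31240 in ON-BC and 27230 in blue cones, and Sphkap had 7157, 3376 and 19700. In OFF-BC against ON-BC, 6 of the 16 were called higher and none lower, beside 3.6% and 2.95% of all tested genes. Their median log2 difference was 1.5. The 6 were Col11a1 (6.66, SE 0.60), Irx5 (6.48, SE 0.60), Grik1 (6.35, SE 0.45), Erbb4 (6.24, SE 0.44), Irx6 (5.67, SE 0.38) and Bhlhe22 (4.25, SE 0.57), with limma adjusted p of 1.76e-07 to 0.000526. Grik1 encodes a kainate-type glutamate receptor subunit, Irx5, Irx6 and Bhlhe22 encode transcription factors, and Erbb4 a neuregulin receptor. Vsx1, a homeodomain factor used as a marker of several OFF types, had 176, 335 and 351 normalized counts in OFF-BC and 1049, 1028 and 848 in ON-BC, with a log2 difference of -1.82 (SE 0.56, limma adjusted p = 0.749). Chrm2 (means 163 and 289), Slitrk5 (280 and 466) and Nfia (5151 and 9102) were also lower in OFF-BC than in ON-BC and were not called.

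**Figure D3:**
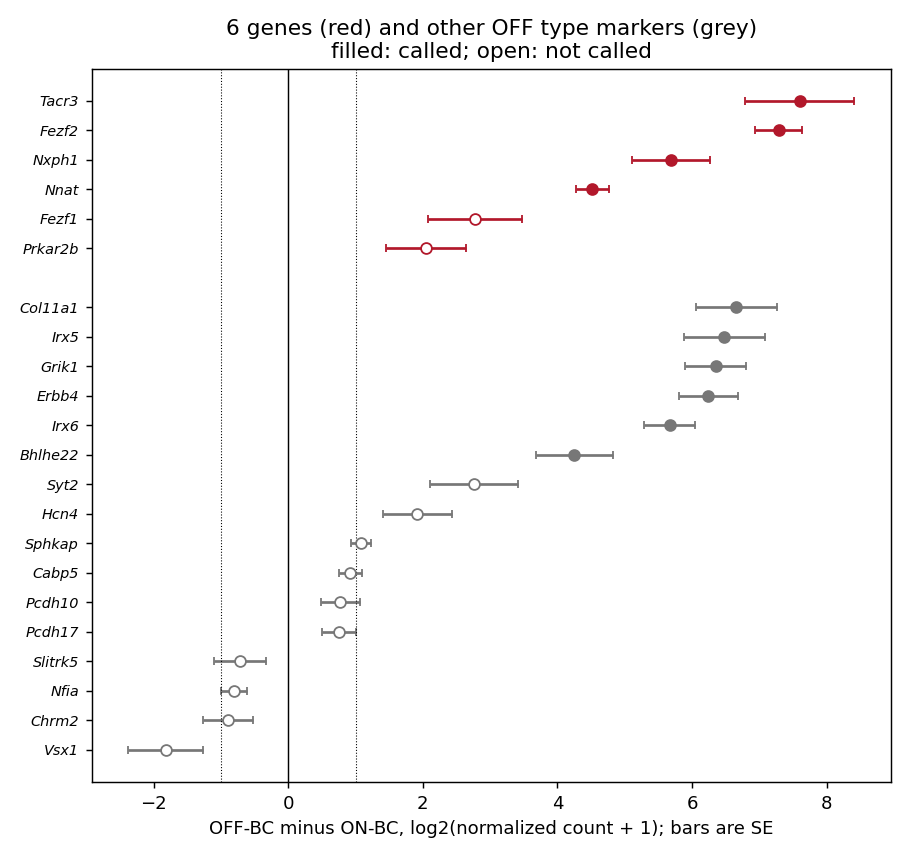
Log2 difference of normalized count plus 1, OFF-BC minus ON-BC, with its SE, for the 6 genes (red) and 16 other OFF type markers (grey). Filled points were called by limma and open points were not, and the dotted lines mark the tested threshold of 1. Of the 6 genes, 4 were called, from 4.52 (Nnat) to 7.60 (Tacr3).

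The partners of the members were examined next. Of 5 other tachykinin genes, 3 passed the filter. Of these, 1 was called lower in OFF-BC than in ON-BC and none higher, beside 2.95% and 3.6% of all tested genes. The one called was Tacr1, the neurokinin-1 receptor, with 10.1, 0 and 13.2 normalized counts in OFF-BC and 206, 335 and 231 in ON-BC, the opposite order to Tacr3. Its log2 difference was -5.55 (SE 0.85, limma adjusted p = 0.000938). Tacr2 had no read in OFF-BC or pan-BC. The peptide genes were scarce, with Tac4 at 29.1 to 51.9, Tac1 at 2.4 to 22.1 and Tac2 at 0 to 4.41 in OFF-BC. Of 6 genes of neurexophilins and neurexins other than Nxph1, 5 were tested. Among them 1 was called higher in OFF-BC, beside 3.6% of all tested genes. This was Nxph4, with 221, 292 and 302 normalized counts in OFF-BC and 3.1, 6.86 and 1.03 in ON-BC (log2 difference 6.07, SE 0.54, limma adjusted p = 2.93e-06). Nxph3 had 690 ± 83.4 in OFF-BC against 194 ± 40.9 in ON-BC (SD, n = 3), with a log2 difference of 1.84 that was not called.

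Of 14 other genes of protein kinase A, its inhibitors and its anchoring proteins, all were tested. None was called higher in OFF-BC than in ON-BC and 2 were called lower, beside 3.6% and 2.95% of all tested genes. These were Pkib, an inhibitor of the kinase (log2 difference -3.44, SE 0.54, limma adjusted p = 0.00407), and Akap12, an anchoring protein (-2.62, SE 0.45, limma adjusted p = 0.0207). The other RII subunit, Prkar2a, had 687 normalized counts in OFF-BC and 795 in ON-BC, with overlapping libraries. The RI subunits Prkar1a and Prkar1b and the catalytic subunits Prkaca and Prkacb differed by -0.54 to 0.05 in log2 and were not called.

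The genes most like each member were found as the 3 genes outside the 6 with the highest Pearson correlation of log2 levels over the 15 libraries. The libraries fall into 5 populations, so a high r says chiefly that the order of populations was shared. For Tacr3 they were Kcnh8 (r = 0.982), Ebf1 (0.981) and Postn (0.978), and for Fezf2 they were Kcnh8, Postn and Vsig2 (0.986 each). Kcnh8, a potassium channel gene, had a mean of 474 normalized counts in OFF-BC and 3.72 in ON-BC. For Nxph1 they were Nkain3 (0.996), BC030867 (0.994) and Ncam2 (0.984). For Nnat they were 2700069I18Rik, Gsg1 and Stmn1 (0.991 each), and Gsg1 had a mean of 145700 in OFF-BC and 7118 in ON-BC. For Prkar2b they were Plekhg1 (0.989), 4930550L24Rik (0.981) and Gap43 (0.979). Fezf1 was most like Pycr1 (0.963), Dcaf4 (0.962) and Bcl2l1 (0.956), all of which were highest in blue cones. Among the members, r was 0.829 to 0.970 for each pair without Fezf1 and -0.451 to -0.183 for each pair with it.

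Accessibility at these genes was then compared in the ATAC-seq regions, which are 200 bp long and were each assigned to the gene with the nearest RefSeq transcription start site (TSS). This gave 74 of 110715 regions, 20 for Nxph1, 18 for Fezf2, 16 for Fezf1, 10 for Tacr3, 6 for Prkar2b and 4 for Nnat. Nearness does not tie a region to a gene. Of the Fezf2 regions 15 lay in the neighbouring gene Cadps, and of the Fezf1 regions 13 lay in the neighbouring gene Cadps2. In GRCm38, Tacr3 spans chr3:134829007-134934581 (+), Nnat chr2:157560078-157562525 (+), Nxph1 chr6:8950019-9248578 (+), Prkar2b chr12:31958471-32061277 (-), Fezf1 chr6:23245047-23248264 (-) and Fezf2 chr14:12341892-12345865 (-). The sequences of 7 regions follow, chosen because the comparisons below turn on them, read from the RefSeq assembly GRCm38.p6 on the strand of the gene. The distance is from the TSS to the centre of the region, and in the promoter regions bases after the TSS are left out. Capitals mark any match, on either strand, to TAATCC or TAATTA (homeodomain motifs) or to CAGCTG or CAGATG (E-boxes).
Fezf1 promoter region at -363 bp, chr6:23248528-23248727 (- strand): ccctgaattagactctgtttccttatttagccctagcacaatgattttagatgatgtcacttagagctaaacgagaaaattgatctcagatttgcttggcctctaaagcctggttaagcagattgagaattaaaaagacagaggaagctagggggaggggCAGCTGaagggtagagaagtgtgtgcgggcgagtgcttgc
Nnat promoter region at -2 bp, chr2:157559977-157560077 (+ strand): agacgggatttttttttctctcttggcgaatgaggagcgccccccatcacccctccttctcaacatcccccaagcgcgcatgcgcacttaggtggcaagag
Prkar2b promoter region at -67 bp, chr12:32061278-32061444 (- strand): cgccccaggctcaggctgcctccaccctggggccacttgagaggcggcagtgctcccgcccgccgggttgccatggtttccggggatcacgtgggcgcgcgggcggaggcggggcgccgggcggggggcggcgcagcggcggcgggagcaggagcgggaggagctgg
Nxph1 intronic region at +48440 bp, chr6:8998360-8998559 (+ strand): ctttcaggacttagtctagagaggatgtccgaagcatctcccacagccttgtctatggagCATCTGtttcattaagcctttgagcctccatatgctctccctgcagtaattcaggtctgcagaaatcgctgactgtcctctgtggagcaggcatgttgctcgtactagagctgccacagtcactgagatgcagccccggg
Nxph1 intronic region at +122569 bp, chr6:9072489-9072688 (+ strand): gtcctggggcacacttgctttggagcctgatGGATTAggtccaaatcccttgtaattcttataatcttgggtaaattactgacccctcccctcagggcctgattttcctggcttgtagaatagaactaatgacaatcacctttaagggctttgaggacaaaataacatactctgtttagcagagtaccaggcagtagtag
Fezf2 region beyond the gene at +4500 bp, chr14:12341266-12341465 (- strand): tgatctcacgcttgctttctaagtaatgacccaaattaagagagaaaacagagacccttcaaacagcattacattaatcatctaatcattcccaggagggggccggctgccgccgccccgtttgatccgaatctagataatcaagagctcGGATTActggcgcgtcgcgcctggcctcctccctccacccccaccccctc
Fezf2 region in a Cadps intron at -225978 bp, chr14:12571744-12571943 (- strand): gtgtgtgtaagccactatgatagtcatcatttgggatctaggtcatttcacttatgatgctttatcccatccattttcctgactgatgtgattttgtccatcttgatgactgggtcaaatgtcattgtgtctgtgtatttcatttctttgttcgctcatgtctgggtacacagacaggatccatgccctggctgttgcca

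Over all 110715 regions of 200 bp, 21.8% held TAATCC, 5.2% TAATTA, 18.0% CAGCTG and 22.3% CAGATG on either strand. Among the 7 sequences, TAATCC or its complement was found in the intronic Nxph1 region at +122569 and the Fezf2 region at +4500, CAGCTG in the Fezf1 promoter region and CAGATG in the Nxph1 region at +48440. The promoter sequences of Nnat and Prkar2b and the Fezf2 region at -225978 held none of the 4 motifs. Those of Nnat (101 bp) and Prkar2b (167 bp) are shorter than the 200 bp of the background. Other forms of the E-box, such as the CACGTG in the Prkar2b sequence, were not counted.

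Between OFF-BC and ON-BC, 7 of the 74 regions were called, beside 7.39% of all 108448 tested regions, a share near this background. Of the 7, 1 was higher in OFF-BC and 6 were lower, beside 2.8% and 4.58% of all tested regions. The split of all calls changed with the settings. Of all called regions 37.9% were higher in OFF-BC, and this was 48.5% under TMM scaling, 21.8% with a pseudocount of 5 and 21.2% by DESeq2. It was 53.2% without ON-BC library 1 and 58.1% without ON-BC library 2, so that most calls were then higher in OFF-BC. The number of member regions called was 2 by DESeq2, 16 by edgeR and 3 without ON-BC library 1 or 2. The region higher in OFF-BC was the intronic Nxph1 region at +122569, with 24.3 and 25.3 normalized counts in OFF-BC and 0 and 0 in ON-BC. Both OFF-BC libraries were above all others, since green cones had 3.84 and 5.63, pan-BC 2.4 and 6.84 and the other photoreceptors at most 1.56. Its log2 difference was 4.69 (SE 0.75, limma adjusted p = 0.00306), and it was called under every alternative that gave it an adjusted p, which DESeq2 did not.

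The called regions lower in OFF-BC were all more than 100 kb from a TSS. In the Cadps intron region assigned to Fezf2 (-225978), ON-BC had 74.7 and 68.8 normalized counts, pan-BC 36.8 and 55.9 and OFF-BC 0 and 3.89. ON-BC were high and OFF-BC close to 0, with a log2 difference of -5.04 (SE 0.99, limma adjusted p = 0.00973). The Cadps2 intron region assigned to Fezf1 (-128876) had 35.8 and 17.6 in ON-BC and 2.69 and 0 in OFF-BC (log2 difference -3.77, SE 0.83, limma adjusted p = 0.0313). Leaving out OFF-BC library 1, ON-BC library 1 or ON-BC library 2 ended the first call (adjusted p 0.0543 to 0.16), and leaving out OFF-BC library 2 or either ON-BC library ended the second (0.0566 to 0.269). By DESeq2 neither was called (adjusted p 0.347 and 0.256), and under TMM scaling the second was not (limma adjusted p = 0.0525). The other 4 lay 543935 to 999253 bp downstream of the Nxph1 TSS, beyond the end of the gene. The one at +993826 had 53.8 and 35.1 in ON-BC and 0 and 0 in OFF-BC (log2 difference -5.48, SE 0.73, limma adjusted p = 0.00067). Thus Nxph1, whose RNA was higher in OFF-BC, had 4 assigned regions called lower in OFF-BC and 1 called higher.

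**Figure D4:**
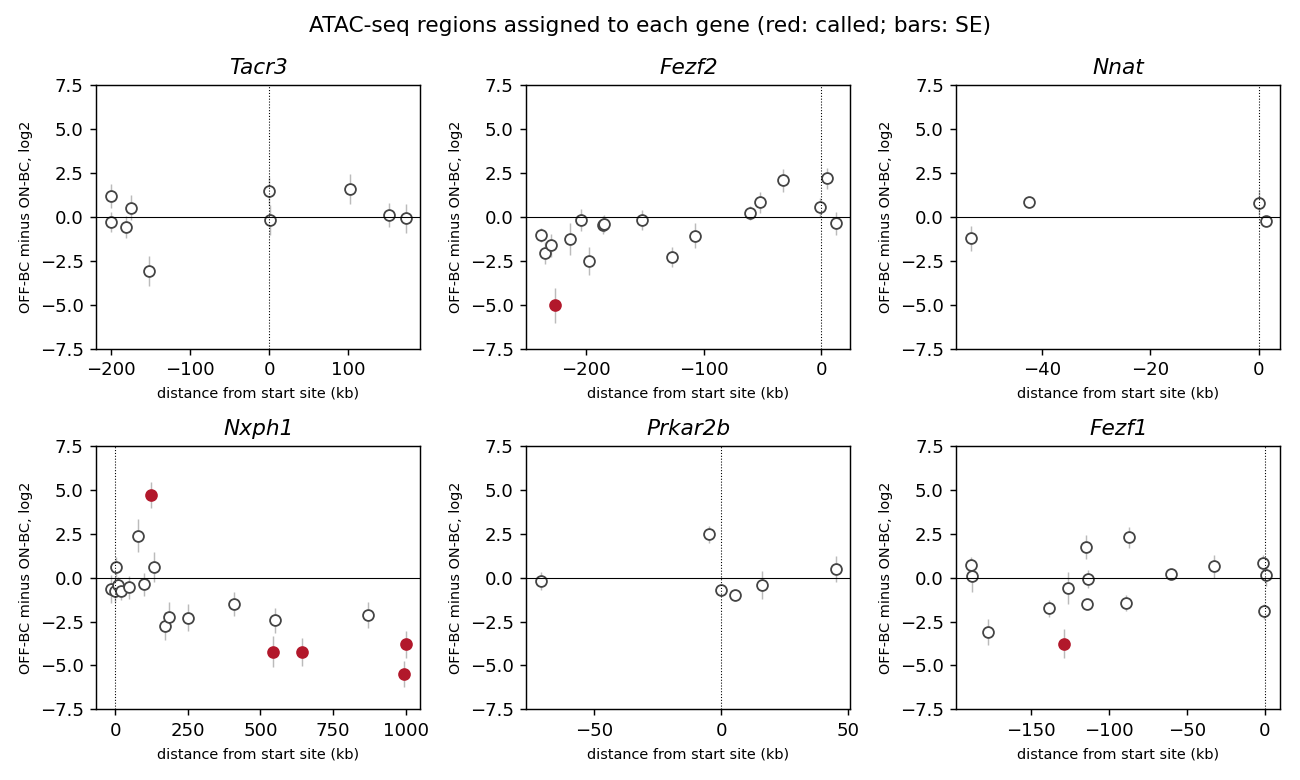
Log2 difference in accessibility, OFF-BC minus ON-BC, of the 74 regions assigned to the 6 genes against their distance from the start site in kb. Bars are SE, and the 7 red points were called by limma. The region higher in OFF-BC is that of Nxph1 at 4.69, and no called region lies near a start site.

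Near the start sites no region was called. Of the 4 promoter regions of members, 0 were called by limma, edgeR or DESeq2 (1 had an unadjusted p below 0.05 by limma and by edgeR), beside 1.27% of all promoter regions tested. Tacr3 and Fezf2 had no region with its centre in the promoter window of 1000 bp upstream to 100 bp downstream of the TSS. A Tacr3 region at +102, just outside it, had 29.6 and 16.6 normalized counts in OFF-BC and 5.97 and 8.79 in ON-BC. OFF-BC was higher in both libraries, but the log2 difference of 1.49 (SE 0.79) was not called (limma adjusted p = 0.937). The Prkar2b promoter was the most accessible of these, with 346 and 310 normalized counts in OFF-BC and 557 and 495 in ON-BC. ON-BC were above OFF-BC there, with a log2 difference of -0.68 (SE 0.26, limma adjusted p = 1). Rods had 15.6 and 8.81 and blue cones 20.7 and 24.6 at this promoter, and OFF-BC was called above both (log2 difference 4.69 against rods, SE 0.26, limma adjusted p = 6.51e-09). The Nnat promoter had 32.3 and 32.1 in OFF-BC and 22.4 and 14.6 in ON-BC, a log2 difference of 0.80 (SE 0.70, limma adjusted p = 1) beside an RNA difference of 4.52. It was called above rods (3.09, SE 0.70, limma adjusted p = 0.0119), a call lost without rod library 2 (0.0514). The Nxph1 promoter had 24.3 and 30.2 in OFF-BC, 43.3 and 49.8 in ON-BC and 0 and 0 in rods.

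At the Fezf1 promoter, blue cones were above rods, as in the RNA. Accessibility was 205 and 198 normalized counts in blue cones, 38.9 and 22.4 in rods and 29.2 and 35.2 in green cones. Here OFF-BC had 41.8 and 13.6 and ON-BC 115 and 77.6. Blue cones were the highest, and ON-BC, where the RNA had 2 reads in all, were above OFF-BC. OFF-BC was called below blue cones (limma adjusted p = 0.00104), and the log2 difference from ON-BC was -1.93 (SE 0.40, limma adjusted p = 0.144), which was called without OFF-BC library 1 (-2.71, limma adjusted p = 0.0143).

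Of the 15 regions within 10000 bp of a TSS, 3 had an unadjusted p below 0.05, among them the Fezf1 promoter and a Fezf2 region at +4500 that was picked out after its values were seen. This region had 44.5 and 50.6 in OFF-BC, 8.96 and 10.3 in ON-BC, with 37.6 and 30.4 in the blue cone libraries and 46.9 and 26.8 in those of green cones. OFF-BC were above ON-BC in both libraries and within the range of green cones in 1 of them. OFF-BC minus ON-BC was 2.19 (SE 0.58, limma adjusted p = 0.205; edgeR adjusted p = 0.018). OFF-BC minus blue cones was 0.48 (SE 0.58), while the RNA of Fezf2 was close to 0 in blue cones. Cone markers were measured in the RNA libraries only, and a part of cone chromatin in the OFF-BC values was not tested.

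The most accessible region of each member beyond its promoter, on average over the 12 libraries, was called in no member between OFF-BC and ON-BC. At Nxph1 this was the intronic region at +48440, with 159 and 101 normalized counts in OFF-BC, 154 and 230 in ON-BC, 0 and 0 in rods and at most 5.63 in cones. The 4 sorted bipolar libraries overlapped, and the log2 difference was -0.56 (SE 0.66, limma adjusted p = 1). At Tacr3 it was an intergenic region at -199016 (64.7 and 77.9 in OFF-BC, 83.6 and 93.7 in ON-BC, 1.56 and 1.36 in rods), and at Fezf2 a Cadps intron region at -60953 (101 and 103, 74.7 and 103, 7.79 and 14.2). At Nnat the region at +1300 was open in every population, from 96.4 in pan-BC to 238 in rods.

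**Figure D5:**
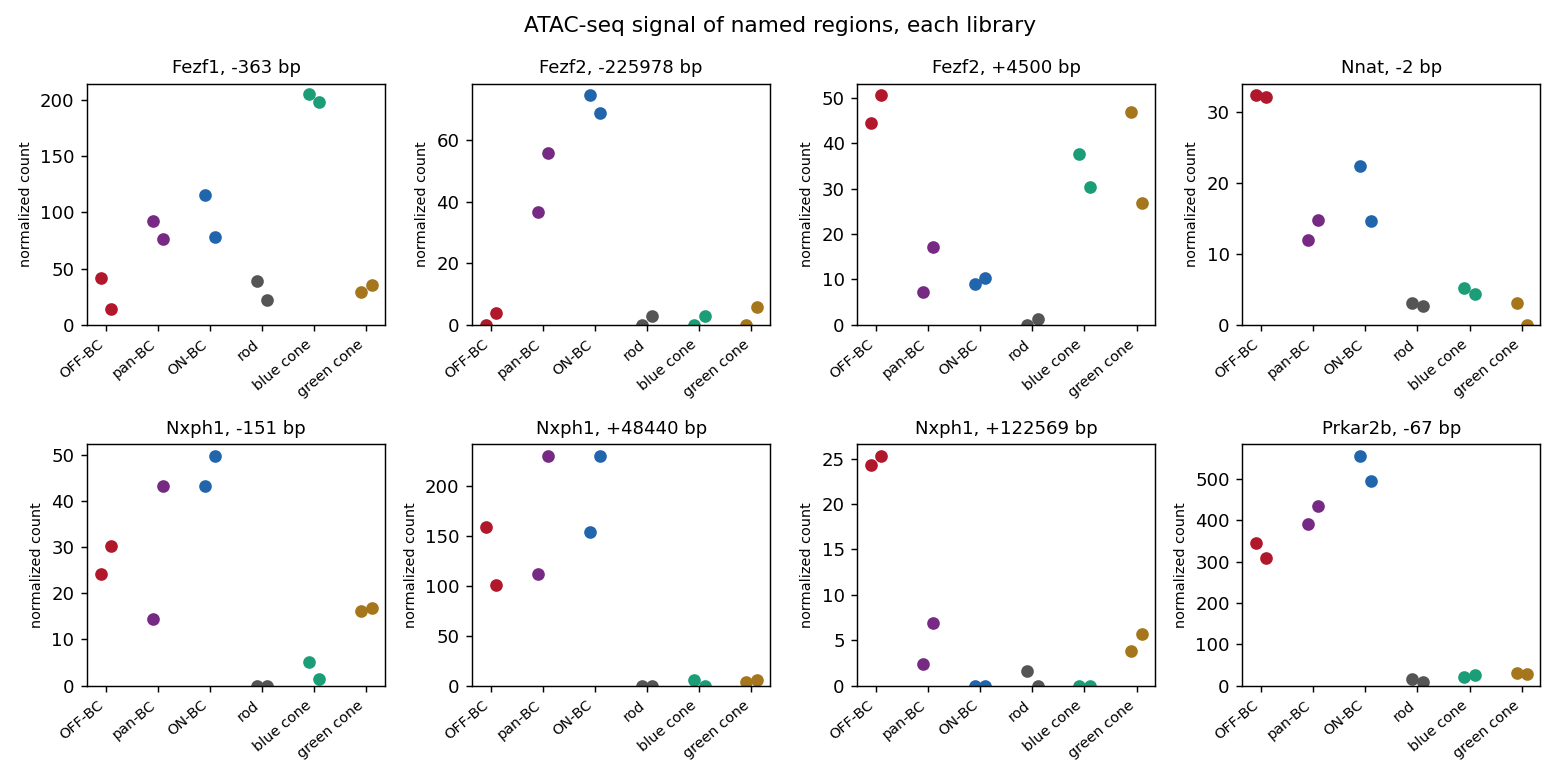
Normalized ATAC-seq count of 8 regions of the member genes in each of the 12 libraries, 2 per population, titled by gene and distance from the start site in bp. The Nxph1 region at +122569 is highest in OFF-BC (24.3 and 25.3), while the Fezf1 promoter region is highest in blue cones (205 and 198).

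Against photoreceptors, 46 of the 74 regions were called higher in OFF-BC than in rods and 2 lower, beside 32.9% and 9.45% of all tested regions. Together these are 48, beside 42.3%. Against blue cones 25 were higher and 4 lower, beside 16.7% and 3.12%, and together 29, beside 19.8%. The 4 lower than in blue cones were all assigned to Fezf1. Of the Tacr3 regions 9 of 10 were higher in OFF-BC than in rods, and of the Fezf1 regions 2 of 16. Peaks called in each of 14 libraries, the double-sorted green cones included, overlapped the Fezf1 promoter window in 12, that of Prkar2b in 11, of Nxph1 in 6, of Tacr3 in 2, of Nnat in 1 and of Fezf2 in none. The Tacr3 peaks were in OFF-BC library 1 and pan-BC library 2, and the Nnat peak was in OFF-BC library 2. The Prkar2b peaks had a fold enrichment of 19.3 to 25.4 in the 6 bipolar libraries and at most 5.67 in photoreceptors. The Fezf1 peaks were highest in blue cones, at 12.4 and 14.6.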

How the data were processed

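The authors aligned RNA-seq reads to GRCm38 with STAR (2.7.0d), took gene counts with HTSeq from RefSeq models, and made ATAC-seq peaks with Bowtie2, SAMtools (their versions differ between the sources), Picard (2.19.0) and MACS2 (2.1.1), called in each library. Both deposited tables hold signal values, namely counts that the authors had divided by a size factor for each library. Dividing by the smallest step of a library gave back the reads, all within 0.01 of a whole number. The peak files of the authors list a score, the fold enrichment (ratio), and -log10 p and q values for each peak. The kit (SMARTer) was not stated to keep strand.

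limma (3.58.1) treat with a trended prior was run on log2(value + 1) in a fit of all libraries of an assay, against a log2 difference of 1, after filterByExpr on the recovered reads by group, with Benjamini-Hochberg adjustment over all features and a threshold of 0.05. edgeR (4.0.16) and DESeq2 (1.42.0) with the same threshold on recovered reads were alternatives. Scripts were tested on simulated data. P-values measure the spread between libraries. The added 1 understates the difference of a gene that has few reads. Named were all 6 members, list genes by count, the 3 genes most like each member, promoter regions, the 2 called regions of smallest p and the most accessible other region of a member. The members and lists were chosen with earlier results of these data known. A few items are not reported here.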

Additional observations from a re-analysis of the deposited data

How the results depend on the processing

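Alternatives were edgeR and DESeq2 on recovered reads, TMM and library total scaling, other pseudocounts, no filter, a fit of the 2 groups alone, a replicate block and leaving out each library. Same-numbered OFF-BC and ON-BC libraries were of the same age, but the sources do not say that they shared mice or a day, and whether they were paired is not known. Deviations of same-numbered RNA-seq libraries correlated at -0.0763, 0.222 and -0.0649 (ON-BC 1 and OFF-BC 3 at 0.141, ON-BC 3 and OFF-BC 1 at 0.212), and those of ATAC-seq at 0.000174. The replicate block gave 907 called genes and 8425 regions between OFF-BC and ON-BC, against 919 and 8010, and 4 members and 7 member regions as before. Between OFF-BC and pan-BC, edgeR called 754 genes against 473, and no member was called with no filter or a pseudocount of 0.5 (0 to 1 when leaving out a library). Between ON-BC and rods, the members called fell to 2 with a pseudocount of 5, and to 2 with the 2 groups alone, where Nxph1 and Tacr3 did not get a test. Library total scaling raised the median log2 difference over all genes from 0.21 to 0.56 (OFF-BC minus rods) and from 0.14 to 0.42 (OFF-BC minus blue cones), with the same number of members called. For regions, OFF-BC against ON-BC gave 4791 calls by DESeq2, 12927 by edgeR and 4014 to 5950 when leaving out a library, and TMM moved the median of all regions from -0.15 to 0.07. Member regions called were 2 by DESeq2, 16 by edgeR, 12 with a pseudocount of 5, 0 when only the 15 regions within 10000 bp of a TSS were counted (3 with an unadjusted p below 0.05, and 2 called by edgeR), and 3 to 5 when leaving out a library. Against blue cones, leaving out a library gave 11598 to 18758 regions (the lowest without OFF-BC library 1) and 17 to 27 member regions, and within 10000 bp there were 5 of them, and 9 against rods. Over libraries left out, the Fezf2 region at -60953 ranged from -0.01 (without ON-BC library 1) to 0.45, and the Fezf1 promoter against rods from -1.06 to 0.49 (without OFF-BC library 2; 0.10 without rod library 1). With a -log10 q of at least 10, promoter peaks remained in 8 libraries for Fezf1, 6 for Prkar2b and 1 for Nxph1. The cause of these changes was not tested. Few reads limit Fezf1 in bipolar cells and regions with under 10 normalized counts.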
